A study of Homo sapiens with 4 samples.

Results

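The Golgi glycosyltransferases and sulfotransferases of 786-O cells were followed through a restoration of VHL. Members were taken by name alone, as every gene of the count table whose symbol begins with GALNT, B3GNT, B3GALT, B4GALT, B4GALNT, ST3GAL, ST6GAL, ST8SIA, FUT, MGAT or CHST and goes on with a number or a letter, FUT symbols only with a number. This gave 74 of the 12912 genes in the table, under 73 symbols, since B3GNTL1 is listed under 2 identifiers. The rule uses symbols and no measured value.

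786-O is a human clear cell renal cell carcinoma line with no functional VHL protein. 786-O-Ctrl cells were compared with 786-O-VHL cells, in which a retroviral vector drives HA-tagged human VHL, with 2 RNA-seq libraries in each group. Both sublines also carry the triple reporter, a fusion of thymidine kinase, GFP and luciferase, and grew in RPMI1640 with fetal bovine serum. Each group is 1 subline, and the sources used here do not say that its libraries came from separate cultures, so that p-values measure only the spread between these libraries. Here and below, values given 4 at a time stand for 786-O-Ctrl, the deeper library before the other, and then for replicates 1 and 2 of 786-O-VHL. VHL itself had 42.9, 43.9, 178 and 163 CPM, that is counts scaled to a library of 1e+06. Library totals ran to 22141263, 15714166, 2807779 and 16114120 counts. A gene with no count can still lie at up to 1.02 CPM in 786-O-VHL replicate 1, which is 3 counts, and at up to 0.142 to 0.199 CPM in the other libraries. The markers of the line had counts in every library, among them PAX8 at 137 to 277 CPM and, lowest, MME at 1.66 to 36.6 CPM, while the leukocyte and endothelial markers measured (CD14, PECAM1 and KDR) were at 1.02 CPM or lower in every library.

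These enzymes sit in the membranes of the Golgi, each adding a single sugar or a sulfate to a growing glycan on a protein or a lipid. GALNT enzymes start mucin-type O-glycans on serine and threonine. MGAT enzymes start the antennae of N-glycans, and B3GNT, B3GALT, B4GALT and B4GALNT enzymes lengthen the chains. FUT enzymes add fucose, ST3GAL, ST6GAL and ST8SIA enzymes cap the chains with sialic acid, and CHST enzymes put sulfate on glycosaminoglycans and other glycans. Which enzymes a cell holds in what proportion sets much of what its surface glycans look like, since several of them compete for the same acceptor. VHL is the recognition subunit of a ubiquitin ligase that removes hypoxia-inducible factor (HIF) α subunits, and 786-O cells express HIF2α and not HIF1α.

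Most members were lower in 786-O-VHL. Of the 68 members that passed the filter on low counts, 42 fell, 12 rose and 14 did not pass the test (edgeR quasi-likelihood test, FDR < 0.05, Benjamini-Hochberg over all 12335 genes tested). Over all genes tested, 31.9% fell and 32.6% rose, 64.5% together. The median log2 fold change of 786-O-VHL over 786-O-Ctrl was -0.49 for the members and 0.02 for all genes, and the median size of the change, whatever its sign, was 0.735 and 0.428. Both 786-O-VHL libraries lay below both 786-O-Ctrl libraries for 46 members and above them for 15, against 39.2% and 40.8% of all genes, and the groups overlapped for 7 members. With 2 libraries a group, an exact permutation test of a single gene cannot give a p below 0.333, so calls rest on the fit across all genes. Of the 54 calls, 21 were lost at FDR < 0.05 without some library, 6 rises and 15 falls, each named where its gene is described. In addition ST6GALNAC3 and ST8SIA6 were not tested without 786-O-VHL replicate 2, nor B3GNT6 without the deeper 786-O-Ctrl library. Members took up 0.342%, 0.337%, 0.267% and 0.269% of a library's counts. In cultures measured in bulk, fewer cells expressing a gene and less RNA per cell cannot be told apart.

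Not all of these calls weigh the same, because a member can pass the filter through a single group. Of the 68, 57 had enough counts in both groups, and of these 38 fell, 6 rose and 13 did not pass the test. The share over all genes with counts in both groups was not computed. Another 6 passed only through the 786-O-VHL libraries (GALNT15, FUT1, FUT2, ST6GAL1, ST6GALNAC3 and ST8SIA6) and 4 only through the 786-O-Ctrl libraries (GALNT5, B3GNT6, ST8SIA5 and 1 of the B3GNTL1 entries). These had to differ to be tested at all, and their calls are given as descriptions of each gene. Reads of overlapping genes, or of genes on opposite strands where counting ignores strand, cannot be told apart, and shared exonic bases of 10% or more are given beside each member. The 6 members below the filter were B3GALT1 (13, 9, 1 and 0 counts), B3GNT3 (0, 0, 2 and 1), B4GALNT3 (1, 1, 0 and 17), ST6GAL2 (3, 2, 0 and 0), ST8SIA4 (6, 8, 2 and 4) and CHST6 (0, 3, 1 and 3). All 17 counts of B4GALNT3 in the 786-O-VHL group came from replicate 2.

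The calls ran from under 2-fold to well past 4-fold. Of the 54 members called, 26 changed by less than 2-fold, 23 of them lower and 3 higher. At 2-fold or more, 19 fell and 9 rose, beside 7.52% and 10.0% of all genes. Past 4-fold at FDR < 0.01, 5 rose (ST6GAL1, ST6GALNAC3, FUT1, GALNT15 and CHST9) and 5 fell (GALNT5, B3GNT6, ST8SIA5, B3GNT4 and B4GALNT1), beside 2.92% and 1.54% of all genes. Among the 57 members with counts in both groups, 3 rose and 15 fell by 2-fold or more, and past 4-fold 1 rose (CHST9) and 2 fell (B3GNT4 and B4GALNT1). For these too the share over all genes was not computed.

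**Figure D1:**
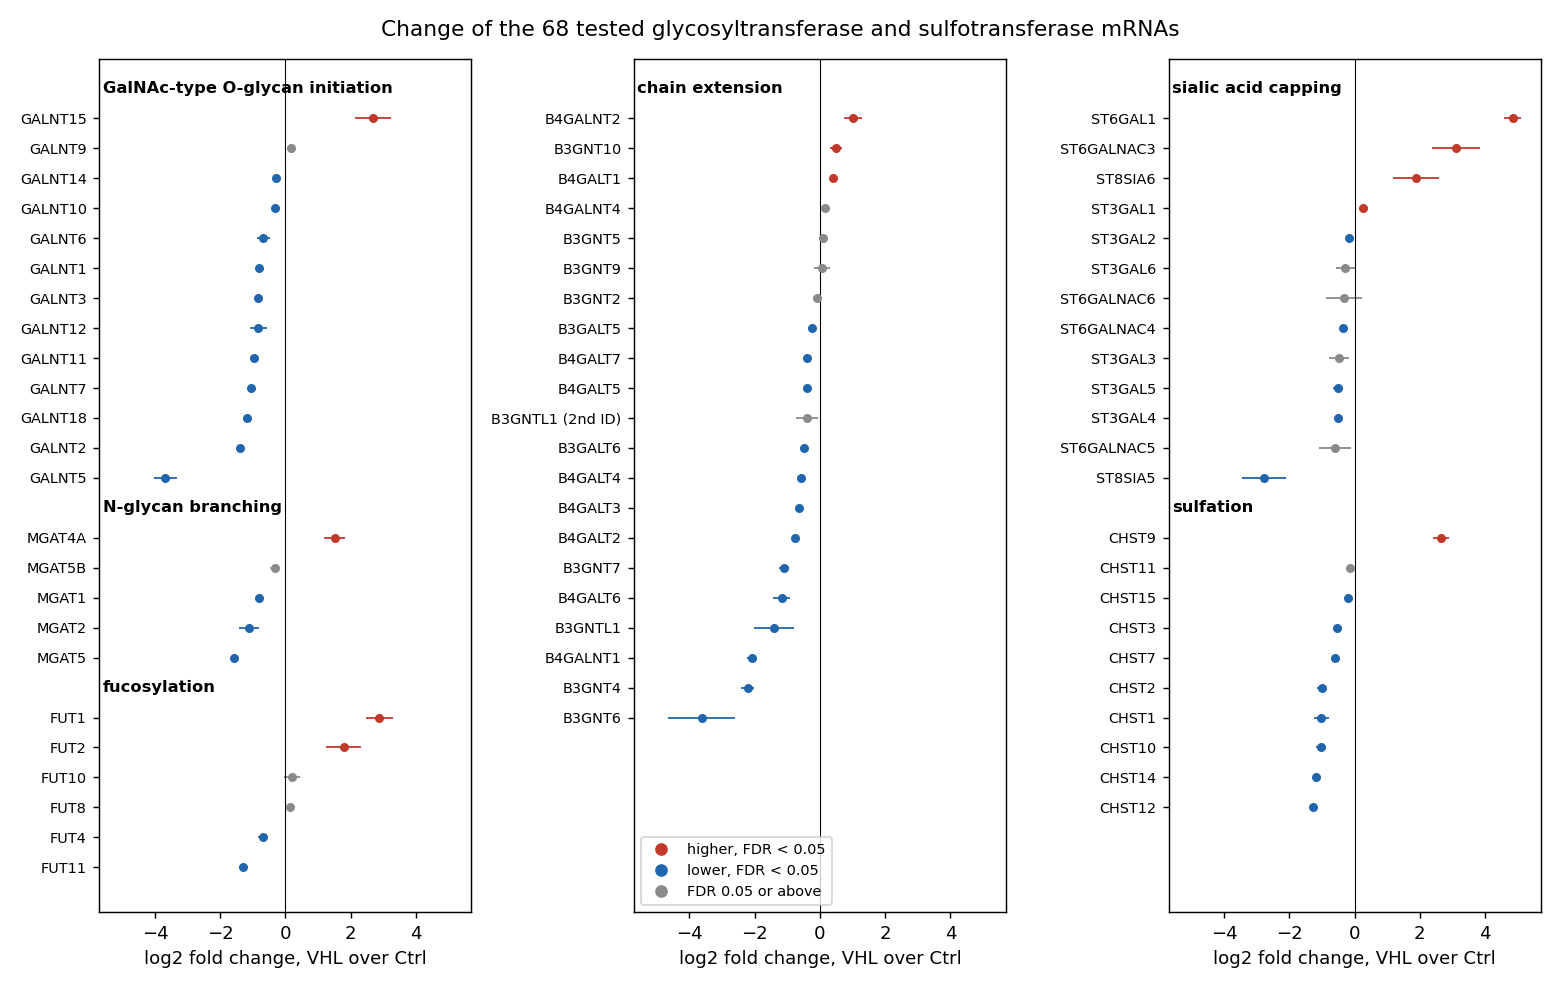
Log2 fold change of 786-O-VHL over 786-O-Ctrl for the 68 tested members, grouped by class, with bars of 1 SE and colour for the call at FDR < 0.05. Members lie mainly below 0 in the GalNAc initiation and sulfation classes, and ST6GAL1, at 4.85, stands above every other member.

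At the better measured levels, set by a limit chosen after the values were seen, falls were the more frequent. Among the 41 members with a mean of at least 10 CPM over all 4 libraries, 32 fell (78.0%) and 2 rose (4.88%), where of the 9235 genes at such levels 37.4% fell and 32.3% rose. The 2 that rose were B4GALT1 and ST3GAL1. Of the 41, all had counts in both groups. The 27 members below 10 CPM include the 10 that passed the filter through a single group, and of the 16 with counts in both groups 6 fell, 4 rose and 6 did not pass the test. Of the 3100 genes tested below 10 CPM, 33.3% rose and 15.5% fell, a share that includes genes with counts in a single group. ST6GAL1 is among the 27 by its mean over all libraries, though the mean of its 786-O-VHL libraries was 18.5 ± 0.316 CPM (SD, n = 2).

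**Figure D2:**
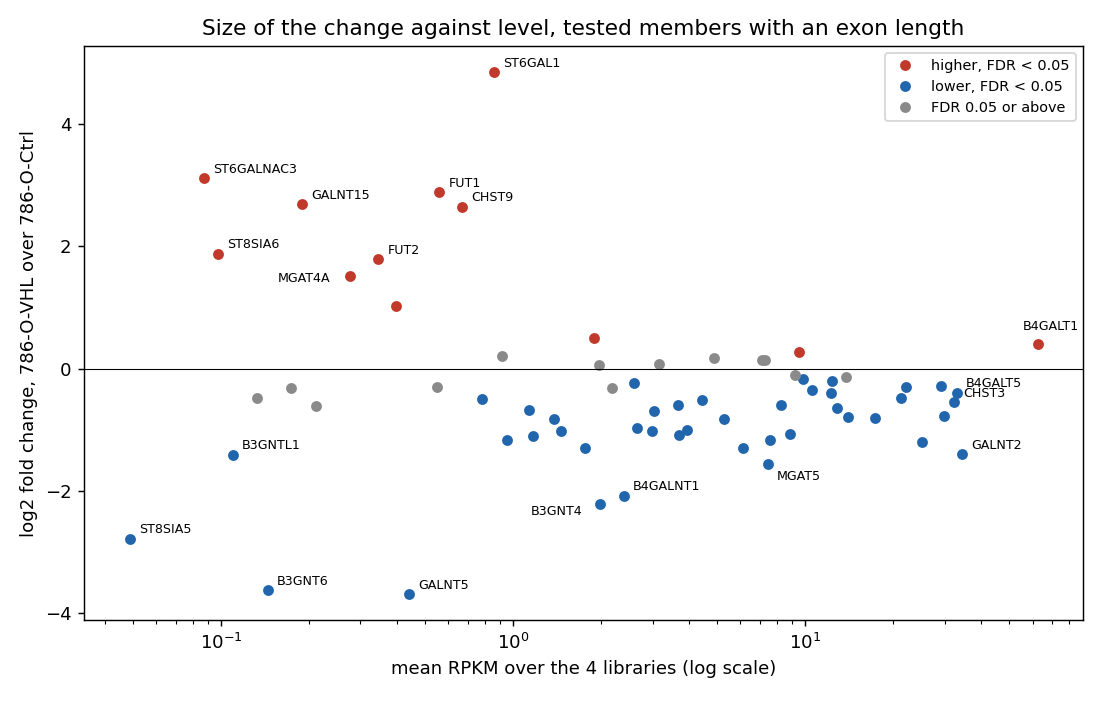
Mean level over all 4 libraries in reads per kilobase of exon per 1e+06 counts (RPKM, log axis) against the log2 fold change of 786-O-VHL over 786-O-Ctrl, for each tested member with an exon length, coloured by call at FDR < 0.05. The rises of 2-fold or more sit at the left, below a mean of 1 RPKM, and B4GALT1, at 0.40, is the point farthest to the right.

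Most of the enzymes that start O-glycans fell. Of the 13 GALNT members, all tested, 11 fell, 1 rose and 1 did not pass the test, with a median log2 fold change of -0.82. Without GALNT5 and GALNT15, which passed the filter through a single group, 10 of 11 fell. GALNT2, a broadly expressed initiating enzyme, had the highest mean RPKM of the class over all 4 libraries. In the 786-O-VHL libraries its 17.94 and 19.59 RPKM lay below GALNT14 (27.56 and 25.53) and GALNT10 (19.42 and 20.05). GALNT2 had 388, 386, 138 and 151 CPM. Its groups stood far apart, with a log2 fold change of -1.40 (SE 0.0664, edgeR FDR = 1.13e-16). GALNT2 spans chr1:230193737-230417868 on the plus strand (GRCh37), and 13.3% of its exonic bases are shared with a gene on the other strand.

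GALNT7, which prefers peptides that already carry GalNAc, had 82.7, 78.9, 41.7 and 37.9 CPM and fell by 1.06 on the log2 scale (SE 0.0804, edgeR FDR = 3.24e-12). GALNT18 had 38.5, 39.1, 14.2 and 18 CPM, a log2 fold change of -1.17 (SE 0.114, edgeR FDR = 5.65e-10). In both genes each 786-O-VHL library was below each 786-O-Ctrl library. GALNT5 fell far, from 164 and 145 counts to 4 and 9, or 7.79, 9.63, 1.36 and 0.534 CPM (log2 fold change -3.68, SE 0.352, edgeR FDR = 3.89e-10). Its ratio of summed counts, scaled for depth, was 13.0-fold lower with a 95% counting interval of 7.51 to 24.7. Leaving out 786-O-VHL replicate 2 brought its log2 fold change to -2.66 (edgeR FDR = 0.000250). The 7 other members that fell changed by less than 2-fold, GALNT1, GALNT3, GALNT6, GALNT10, GALNT11, GALNT12 and GALNT14, between -0.97 (GALNT11) and -0.28 (GALNT14). Of these, GALNT6 had an FDR of 0.199 without 786-O-VHL replicate 2, GALNT12 (20.9% of exonic bases shared with the other strand) of 0.111 without the shallower 786-O-Ctrl library and GALNT14 of 0.0540 without the deeper. GALNT9 was at 21.9, 20.6, 23.4 and 24.2 CPM (log2 fold change 0.17, edgeR FDR = 0.208) and shares 10.2% with the other strand.

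GALNT15 was the GALNT member that rose, with 7, 3, 8 and 27 counts, or 0.332, 0.199, 2.71 and 1.60 CPM (log2 fold change 2.68, SE 0.553, edgeR FDR = 0.000121). Its level stayed low in both groups. Summed over the class, GALNT transcripts came to 171, 169, 101 and 101 RPKM. The make-up of that sum differed too. GALNT2 held 29.5%, 29.6%, 17.8% and 19.4% of it, and GALNT14, although its own level was lower in 786-O-VHL, held 18.9%, 18.4%, 27.3% and 25.2%.

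N-glycan branching was lower at 3 of its 5 members. MGAT1, which makes the opening step to hybrid and complex N-glycans, was the most abundant of the class per length at 211, 198, 115 and 119 CPM, a log2 fold change of -0.80 (SE 0.0671, edgeR FDR = 2.93e-11). MGAT5, which starts the β1,6 branch bearing poly-N-acetyllactosamine and is known for its link to tumour cell spread, had 103, 94.6, 28.8 and 34.8 CPM. Both 786-O-VHL libraries were far below the others, with a log2 fold change of -1.56 (SE 0.0846, edgeR FDR = 2.34e-15). MGAT5 spans chr2:134877554-135212192 on the plus strand (GRCh37), with no exonic base shared with another gene.

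MGAT4A, which adds the β1,4 branch on the other arm, went the other way, with 30, 22, 10 and 73 counts, or 1.42, 1.46, 3.39 and 4.33 CPM (log2 fold change 1.51, SE 0.323, edgeR FDR = 0.000182). Without 786-O-VHL replicate 2 its log2 fold change was 1.22 and the FDR 0.110. MGAT2, which starts the second antenna, had 4.27, 4.05, 2.37 and 1.84 CPM (log2 fold change -1.10, SE 0.309, edgeR FDR = 0.00277). MGAT2 is uncertain, since 92% of its exonic bases are shared with a gene on the other strand. Its FDR was 0.0723 by DESeq2 and 0.227 without 786-O-VHL replicate 2. MGAT5B, a brain-type relative that acts on O-mannose glycans, had 16.9, 13.9, 12.9 and 12.3 CPM (edgeR FDR = 0.0722). The class summed to 34.4, 31.8, 16.5 and 17.4 RPKM. Within MGAT1, MGAT2, MGAT4A and MGAT5, a grouping made after the values were seen, the share of MGAT5 was 36.9%, 36.4%, 22.7% and 25.7%.

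**Figure D3:**
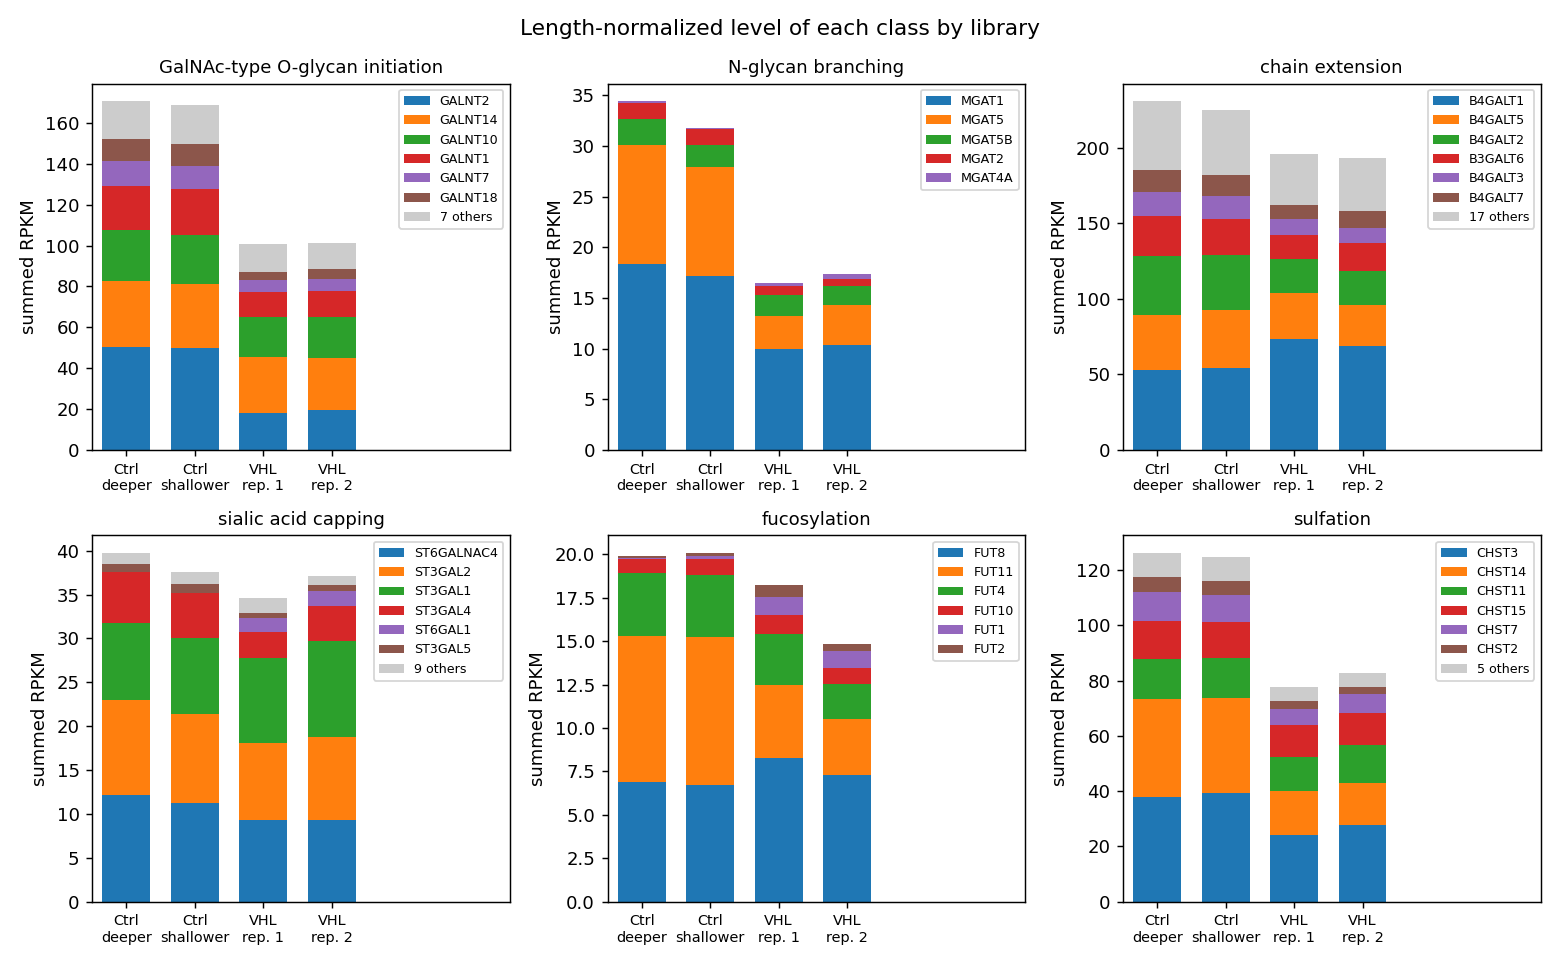
Summed RPKM of each class of members, with a stacked bar for each of the 4 libraries and colours for the 6 most abundant members of the class. The sums for GalNAc initiation, N-glycan branching, chain extension, fucosylation and sulfation are lower in both 786-O-VHL libraries. That for sialic acid capping is lower by less, and its 37.6 in the shallower 786-O-Ctrl library and 37.2 in 786-O-VHL replicate 2 nearly meet.

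Chain extension was the largest class, with 24 members and 21 tested, of which 13 fell, 3 rose and 5 did not pass the test (median log2 fold change -0.40). Without B3GNT6 and 1 of the B3GNTL1 entries, which passed the filter through a single group, 11 of 19 fell and 3 rose. B4GALT1, the main galactosyltransferase of N-acetyllactosamine (LacNAc) and a subunit of lactose synthase, was the most abundant member of the class per length. It had 260, 267, 358 and 338 CPM and rose by a log2 fold change of 0.40 (SE 0.0624, edgeR FDR = 3.05e-06), with both 786-O-VHL libraries above both others. Its closest relatives fell. B4GALT2 had a log2 fold change of -0.77, B4GALT3 -0.65 and B4GALT4 -0.59, each called, B4GALT4 with an FDR of 0.0944 without 786-O-VHL replicate 2. B4GALT3 shares 28.7% of its exonic bases with a gene on the other strand. The sum of these 4 LacNAc galactosyltransferases, a grouping made after the values were seen, was 113, 110, 109 and 104 RPKM. B4GALT1 made up 47.0%, 49.5%, 67.3% and 66.4% of it. B4GALT1 spans chr9:33104080-33167354 on the minus strand (GRCh37).

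The galactosyltransferases of glycolipids and of the glycosaminoglycan linker were lower as well. B4GALT5, the major lactosylceramide synthase, had a log2 fold change of -0.39 (edgeR FDR = 1.58e-05). B4GALT6, the other lactosylceramide synthase, had 7.88, 5.45, 3.39 and 2.91 CPM (log2 fold change -1.17, SE 0.267, edgeR FDR = 0.000368), and its FDR was 0.0604 without the deeper 786-O-Ctrl library and 0.0840 without 786-O-VHL replicate 2. The linker galactosyltransferases B4GALT7 and B3GALT6 had log2 fold changes of -0.39 and -0.48, each called. B3GALT5, which builds type 1 chains, had -0.24 (edgeR FDR = 0.0286), a call lost without the deeper (FDR = 0.222) or the shallower 786-O-Ctrl library (0.0664) or 786-O-VHL replicate 1 (0.0521).

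B4GALNT1, which makes the gangliosides GM2 and GD2, was among the large falls, with 608, 455, 30 and 106 counts, or 28.9, 30.2, 10.2 and 6.29 CPM. The highest 786-O-VHL library was well below the lowest 786-O-Ctrl library (log2 fold change -2.08, SE 0.155, edgeR FDR = 2.53e-12). B4GALNT1 spans chr12:58017192-58027022 on the minus strand (GRCh37) and shares 27.1% of its exonic bases with genes on the other strand. B4GALNT2, the Sda antigen synthase, had 50, 40, 11 and 92 counts, or 2.37, 2.66, 3.73 and 5.46 CPM (log2 fold change 1.02, SE 0.276, edgeR FDR = 0.00205). That call did not hold by DESeq2 (FDR = 0.0950), without the deeper 786-O-Ctrl library (FDR = 0.0551) or without 786-O-VHL replicate 2 (FDR = 0.401), and 15.1% of its exonic bases are shared with a gene on the same strand. B4GALNT4, a LacdiNAc synthase, was at 29.6, 26.1, 28.5 and 31.7 CPM (edgeR FDR = 0.248).

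Among the B3GNT enzymes, which add GlcNAc, the most abundant did not pass the test and several others fell. B3GNT2, the main poly-LacNAc enzyme, had 27.8, 26.9, 25.4 and 25.6 CPM (log2 fold change -0.10, SE 0.109, edgeR FDR = 0.445). B3GNT5, which starts lacto-series glycolipids, had 25.7, 24.9, 24.4 and 27.6 CPM (log2 fold change 0.08, SE 0.111, edgeR FDR = 0.544). In both, the difference was smaller than its error, and B3GNT5 shares 16.2% of its exonic bases with the other strand. B3GNT4 had 313, 228, 8 and 56 counts, or 14.9, 15.2, 2.71 and 3.33 CPM (log2 fold change -2.22, SE 0.202, edgeR FDR = 1.54e-10), and 21.3% of its exonic bases are shared with genes on the other strand. B3GNT7, which works on keratan sulfate chains, had 18.5, 18, 8.48 and 8.61 CPM (log2 fold change -1.09, SE 0.153, edgeR FDR = 4.65e-07). In B3GNT4 and B3GNT7 the libraries of a group lay close together and the groups far apart.

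B3GNT6, the core 3 synthase, had 14, 12, 0 and 1 counts. Its ratio of summed counts, scaled for depth, was 14.2-fold lower in 786-O-VHL with a 95% counting interval of 2.34 to 584, and its FDR was 0.00302 by edgeR, 0.0702 by DESeq2 and 0.159 without 786-O-VHL replicate 2, which holds the lone count of its group. Of the B3GNTL1 entries, that with the identifier ENSG00000175711.8 had 24, 16, 3 and 5 counts (log2 fold change -1.40, edgeR FDR = 0.0443) and that with ENSG00000277033.2 had 71, 41, 10 and 35 counts (log2 fold change -0.40, edgeR FDR = 0.291). B3GNTL1 is uncertain, since reads may be split between the entries and ENSG00000175711.8 shares 23.8% of its exonic bases with a gene on the other strand. The former was at 1.14, 1.06, 1.02 and 0.297 CPM, with the groups almost touching, and its FDR was 0.189 without the deeper 786-O-Ctrl library, 0.116 without the shallower and 0.926 without 786-O-VHL replicate 2. B3GNT10 was called higher at a log2 fold change of 0.50 (edgeR FDR = 0.0204), a call lost without the deeper (FDR = 0.184) or the shallower 786-O-Ctrl library (0.0897) or 786-O-VHL replicate 2 (0.589). B3GNT9 was at 6.69, 3.79, 5.09 and 5.76 CPM with overlapping groups and shares 16.3% with the other strand.

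Of the 6 fucosylation members, 4 had counts in both groups, and of these 2 fell and 2 did not pass the test. The others, FUT1 and FUT2, rose and passed the filter only through the 786-O-VHL libraries. The class summed to 19.9, 20.1, 18.2 and 14.8 RPKM. FUT8, which adds core fucose to N-glycans, had the highest mean RPKM of the class over all 4 libraries, though FUT11 was higher in both 786-O-Ctrl libraries. FUT8 was at 48.0, 46.8, 57.7 and 50.8 CPM (log2 fold change 0.15, SE 0.0842, edgeR FDR = 0.128), with 11.8% of its exonic bases shared with the other strand. FUT11 had 41.5, 42.1, 20.7 and 16 CPM, with each 786-O-VHL library below each 786-O-Ctrl library (log2 fold change -1.30, SE 0.115, edgeR FDR = 8.26e-11), and shares 16.4% of its exonic bases with the other strand. FUT4, which makes Lewis x structures, fell by 0.70 on the log2 scale, with an FDR of 0.264 without 786-O-VHL replicate 2, and shares 10.1% with its own and 10.9% with the other strand. FUT10 was at 4.18, 4.65, 5.77 and 4.87 CPM (edgeR FDR = 0.482). FUT11 held 42.5%, 42.5%, 23.1% and 22% of the class RPKM, and FUT8 34.6%, 33.4%, 45.4% and 49.1%.

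The pair of α1,2-fucosyltransferases, FUT1 and FUT2, which make the H antigen and lie near each other on chromosome 19, both went up from low counts. FUT1 had 7, 13, 13 and 69 counts, or 0.332, 0.864, 4.41 and 4.10 CPM (log2 fold change 2.88, SE 0.410, edgeR FDR = 6.15e-07). With so few counts, its log2 fold change was 2.26 without the deeper 786-O-Ctrl library and 3.61 without the shallower. FUT2 had 7, 9, 7 and 23 counts, or 0.332, 0.598, 2.37 and 1.37 CPM (log2 fold change 1.78, SE 0.528, edgeR FDR = 0.00435), and its FDR was 0.103 without the deeper 786-O-Ctrl library. Without 786-O-VHL replicate 2 its log2 fold change was 2.38. Neither gene had overlapping groups, but both passed the filter only through the 786-O-VHL libraries, so this is no separate support. FUT1 spans chr19:49251268-49258647 on the minus strand and FUT2 chr19:49199228-49209208 on the plus strand (GRCh37).

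Of the 15 sialic acid capping members, 8 had counts in both groups, and of these 4 fell, 1 rose and 3 did not pass the test. The largest fitted log2 fold change of any member was in the same class. ST6GAL1, which caps LacNAc with sialic acid in α2,6 linkage, had 9, 14, 54 and 316 counts, or 0.427, 0.930, 18.3 and 18.8 CPM. Both 786-O-VHL libraries stood at nearly the same level, far above the few counts of 786-O-Ctrl, with a log2 fold change of 4.85 (SE 0.265, edgeR FDR = 2.79e-15), or 28.8-fold. Leaving out each library in turn gave log2 fold changes of 4.30 to 5.41. ST6GAL1 spans chr3:186648114-186796341 on the plus strand (GRCh37), with no exonic base shared with another gene.

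None of the sialyltransferases that cap the same acceptor in α2,3 linkage was called higher. ST3GAL4 had 34.0, 30.0, 17.6 and 23.8 CPM and fell by 0.52 on the log2 scale (SE 0.119, edgeR FDR = 0.000394). ST3GAL6 was at 3.42, 3.92, 3.73 and 2.79 CPM (edgeR FDR = 0.390) and ST3GAL3 at 3.13, 3.12, 1.70 and 2.38 CPM (edgeR FDR = 0.194), with 10% of the exonic bases of ST3GAL3 shared with its own strand. The sum of ST6GAL1, ST3GAL3, ST3GAL4 and ST3GAL6, a grouping made after the values were seen, was 6.45, 5.89, 5.28 and 6.24 RPKM and overlapped between the groups. ST6GAL1 made up 0.594%, 1.42%, 31.1% and 27.0% of that sum, and ST3GAL4 88.5%, 85.3%, 56.0% and 64.0%.

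**Figure D4:**
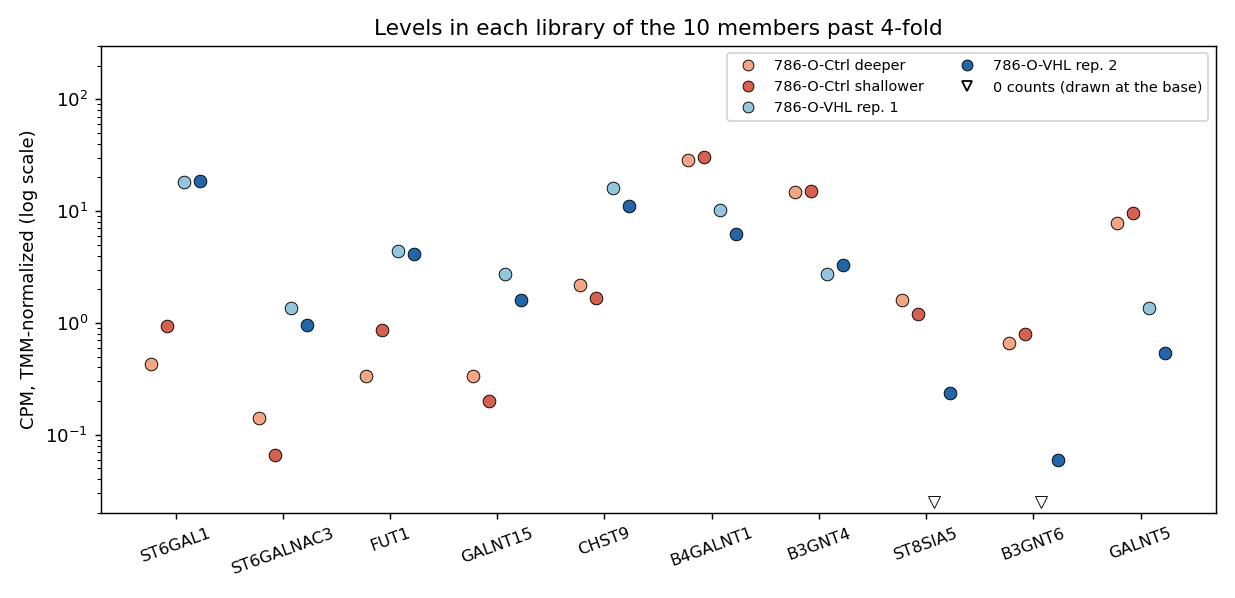
CPM in each of the 4 libraries (log axis) of the 10 members past 4-fold at FDR < 0.01, with a coloured point for each library and an open triangle at the base of the axis for a library with 0 counts. The groups do not overlap for any of the 10, which is no separate support, since they were picked for their change. Most of them passed the filter through a single group. ST6GAL1 and CHST9 have the highest 786-O-VHL levels of those that rose.

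Other capping enzymes changed less or from fewer counts. ST6GALNAC4, which sialylates O-glycans and was the most abundant of the class per length, had 32.0, 29.8, 24.4 and 24.5 CPM (log2 fold change -0.34, SE 0.109, edgeR FDR = 0.00738). Its FDR was 0.0835 by DESeq2, 0.144 without the deeper 786-O-Ctrl library and 0.110 without 786-O-VHL replicate 2. ST3GAL1, which sialylates core 1 O-glycans, was called higher at a log2 fold change of 0.27 (77.6, 76.3, 84.8 and 96.0 CPM), and ST3GAL2, with a like acceptor, was called lower at -0.17. Neither call held throughout, with an FDR of 0.0687 for ST3GAL1 without the shallower 786-O-Ctrl library and 0.297 without 786-O-VHL replicate 2, and of 0.346 and 0.0702 for ST3GAL2 when the deeper or the other 786-O-Ctrl library was left out. ST3GAL5, the GM3 synthase, had 14.5, 16, 9.16 and 11.2 CPM (log2 fold change -0.50, edgeR FDR = 0.00636), with an FDR of 0.0777 without the shallower 786-O-Ctrl library.

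ST6GALNAC3, which forms disialylated O-glycans and gangliosides, had 3, 1, 4 and 16 counts (log2 fold change 3.11, SE 0.745, edgeR FDR = 0.000638), and a log2 fold change of 3.75 without the deeper 786-O-Ctrl library. From so few counts its scaled ratio was 9.12-fold higher in 786-O-VHL with a 95% counting interval of 3.06 to 36.7. ST8SIA6 had 6, 2, 5 and 11 counts (log2 fold change 1.88, edgeR FDR = 0.0231), and its FDR was 0.136 without the shallower 786-O-Ctrl library and 0.120 without 786-O-VHL replicate 1. Without the deeper 786-O-Ctrl library its log2 fold change was 2.60. ST8SIA5, a ganglioside sialyltransferase, had 34, 18, 0 and 4 counts (log2 fold change -2.78, SE 0.671, edgeR FDR = 0.000694), a scaled ratio of 7.12-fold lower with a 95% counting interval of 2.62 to 27.1. Without 786-O-VHL replicate 2 its group has 0 counts, and the edgeR FDR was 0.0400. ST6GALNAC5 and ST6GALNAC6 did not pass the test, at 0.594 to 1.93 CPM in all libraries, and 47.0% of the exonic bases of ST6GALNAC6 are shared with a gene on the same strand. Over the class, RPKM was 39.8, 37.6, 34.6 and 37.2.

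Most sulfotransferases fell. Of their 11 members 10 were tested, of which 8 fell, 1 rose and 1 did not pass the test (median log2 fold change -0.80). CHST3, the chondroitin 6-sulfotransferase, was the most abundant per length at 263, 272, 168 and 193 CPM (log2 fold change -0.54, SE 0.0678, edgeR FDR = 6.26e-08). CHST14, the dermatan 4-sulfotransferase, had 76.8, 74.6, 34.6 and 32.7 CPM (log2 fold change -1.19, SE 0.0827, edgeR FDR = 4.79e-13). CHST12, a chondroitin 4-sulfotransferase, had 42.0, 37.9, 17.0 and 16.3 CPM (log2 fold change -1.29, SE 0.114, edgeR FDR = 8.28e-11). For all of these the 786-O-VHL libraries lay below the 786-O-Ctrl libraries.

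CHST11, the other abundant chondroitin 4-sulfotransferase, was at 95.1, 95.1, 79.7 and 89.5 CPM (log2 fold change -0.13, SE 0.0705, edgeR FDR = 0.102). The ratio of 6-sulfotransferase RPKM (CHST3 and CHST7) to 4-sulfotransferase RPKM (CHST11 and CHST12) was 2.81, 2.88, 2.25 and 2.35. This was again a grouping made after the values were seen. CHST14 was left out of it, although it too is a 4-sulfotransferase. Its 35.3, 34.31, 15.91 and 15.04 RPKM exceeded CHST11 and CHST12 together in every library. That order rests on the exon lengths used, 2175 bases for CHST14, 6492 for CHST11 and 16116 for CHST12. In CPM, CHST14 (76.8, 74.6, 34.6 and 32.7) was below CHST11 alone in every library. A ratio that counts CHST14 was not computed, so the values describe the named members alone and no shift between 6- and 4-sulfation. CHST2, which sulfates GlcNAc, had 22.7, 20.6, 11.2 and 10.7 CPM (log2 fold change -1.01, SE 0.141, edgeR FDR = 4.39e-07). CHST10, which makes the HNK-1 epitope, had 19.1, 18.4, 6.44 and 9.91 CPM (log2 fold change -1.03, SE 0.157, edgeR FDR = 1.86e-06). CHST1, a keratan sulfate sulfotransferase, had 7.93, 9.44, 6.11 and 3.80 CPM (log2 fold change -1.02, SE 0.231, edgeR FDR = 0.000332), and without 786-O-VHL replicate 2 its log2 fold change was -0.50 and the FDR 0.261. CHST7 and CHST15 fell by 0.59 and 0.20 on the log2 scale, and the call of CHST15 was lost without the deeper (FDR = 0.211) or the shallower 786-O-Ctrl library (0.0886) or 786-O-VHL replicate 2 (0.129).

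CHST9, which sulfates terminal GalNAc, as on some hormone glycans, had 46, 25, 47 and 186 counts, or 2.18, 1.66, 15.9 and 11 CPM. Every 786-O-VHL library was above every 786-O-Ctrl library (log2 fold change 2.65, SE 0.247, edgeR FDR = 2.46e-10). CHST9 spans chr18:24486445-24765272 on the minus strand (GRCh37). Summed over the class, RPKM was 126, 125, 77.7 and 82.7.

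The start regions of the risers were read next, since VHL acts on HIF, and HIF binds DNA at a core of ACGTG or GCGTG. RefSeq promoters (GRCh38.p14 table), from 250 bases before the start to 50 after it, were found for 54 of the 73 member symbols. ST6GAL1, FUT1 and CHST9 are shown as those of the members that rose past 4-fold with the most counts in the 786-O-VHL libraries. Each 300-base sequence also matched GRCh37 exactly once, at chr3:186648065-186648364 on the plus strand for ST6GAL1, at chr19:49258566-49258865 on the minus strand for FUT1 and at chr18:24765223-24765522 on the minus strand for CHST9. Capitals mark ACGTG or GCGTG on either strand.
ST6GAL1: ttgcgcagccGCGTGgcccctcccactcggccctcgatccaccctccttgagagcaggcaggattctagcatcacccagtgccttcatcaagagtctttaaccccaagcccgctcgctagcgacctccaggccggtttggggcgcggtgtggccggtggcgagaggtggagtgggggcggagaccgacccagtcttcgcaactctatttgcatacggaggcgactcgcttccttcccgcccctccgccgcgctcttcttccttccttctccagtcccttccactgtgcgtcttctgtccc
FUT1: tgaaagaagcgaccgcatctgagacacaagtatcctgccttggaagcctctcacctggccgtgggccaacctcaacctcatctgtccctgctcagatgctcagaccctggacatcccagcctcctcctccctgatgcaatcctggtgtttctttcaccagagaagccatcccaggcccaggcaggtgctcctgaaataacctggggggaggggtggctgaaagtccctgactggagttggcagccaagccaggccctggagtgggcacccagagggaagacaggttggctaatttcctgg
CHST9: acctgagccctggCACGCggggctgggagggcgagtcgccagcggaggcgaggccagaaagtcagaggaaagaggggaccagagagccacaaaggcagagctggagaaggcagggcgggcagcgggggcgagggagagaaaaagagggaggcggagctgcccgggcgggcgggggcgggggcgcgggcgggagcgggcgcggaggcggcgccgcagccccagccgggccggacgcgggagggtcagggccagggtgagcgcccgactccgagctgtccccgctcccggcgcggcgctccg
ST6GAL1 held GCGTG from base 11, CHST9 held it on the opposite strand from base 14, and FUT1 held neither motif in this window. Of the other members that rose past 4-fold, not shown, ST6GALNAC3 held ACGTG, counted on both strands, from bases 44, 132 and 133. GALNT15 held GCGTG on the opposite strand from base 162.

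Such short motifs are common, and whether HIF binds at any of them was not tested. At least 1 of the motifs was in 53.7% of the 54 member promoters and in 48.4% of the 27305 promoters of the table. It was in 5 of 8 promoters of members that rose, 16 of 30 of members that fell and 4 of 11 of members that did not pass the test. ACGTG alone was in 24.1% of member promoters and 21.6% of all, and GCGTG in 40.7% and 36.3%. GALNT5, B3GNT6, ST8SIA5, B3GNT4 and B4GALNT1 were not matched to a promoter.

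Other genes of the same pathways were counted by lists drawn up from their known roles. Of 22 tested genes that make nucleotide sugars and the sulfate donor PAPS, 12 fell and 4 rose (median log2 fold change -0.23). The number that rose was 1 by DESeq2 and 2 by edgeR without the deeper 786-O-Ctrl library or with libraries thinned to the shallowest. The 2 largest falls were in TSTA3 and UAP1. TSTA3, the GDP-fucose synthase, was at -1.40 from few counts (50, 33, 3 and 14). UAP1, which makes UDP-GlcNAc and UDP-GalNAc, was at -1.33 (154, 166, 68.5 and 61.6 CPM). The 2 largest rises, smaller than several of the falls, were in GFPT1, which controls entry to the hexosamine pathway (0.72), and GMDS, which starts GDP-fucose synthesis (0.43). These are mRNA values, and the authors list the GFPT1 protein among those lower and ubiquitinated in 786-O-VHL cells.  Of 11 transporters that carry these donors into the Golgi, 4 fell and 1 rose (median 0.06), with SLC35C1, the GDP-fucose transporter, at -0.92, SLC35A4 at -0.56 and SLC35D2 at 0.40. The rise of SLC35D2, at an edgeR FDR of 0.0496, was lost by DESeq2, with RLE size factors and without the deeper 786-O-Ctrl library, while 2 of the list rose by limma-voom or without 786-O-VHL replicate 2, and 4 when scaled by library totals alone.

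Of 8 tested glycosidases that trim N-glycans, 6 fell and the others did not pass the test (median -0.53), led by MANEA at -1.28 and MAN1A2, a Golgi mannosidase, at -0.77. Of 22 other tested glycosaminoglycan enzymes 13 fell and 5 rose (median -0.25). CHPF2, of the chondroitin polymerase complex, was at -1.63 (216, 205, 65.8 and 69.1 CPM) and EXT2, of the heparan sulfate polymerase, at -1.12, while EXTL1 was at 1.64 (6, 4, 5 and 12 counts) and CSGALNACT1, which starts chondroitin chains, at 1.11 (16, 16, 1 and 39 counts, with overlapping groups). The number that rose was 2 by DESeq2 and without the shallower 786-O-Ctrl library, 1 without the deeper or with thinned libraries, and none was called without 786-O-VHL replicate 2. Of 5 tested enzymes of O-glycan cores 1 and 2, 2 fell and 2 rose (median -0.19), with C1GALT1C1, the chaperone of the core 1 synthase, at -0.65, GCNT1 at -0.40, GCNT4 at 1.12 and C1GALT1, the core 1 synthase, at 0.19. Neither rise was called by DESeq2 or without either 786-O-Ctrl library, and without 786-O-VHL replicate 2 a single gene, lower, was called.

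Golgi tethers and the COG complex, which hold Golgi enzymes in place but do not act on glycans, served as a list from the same organelle. Of 22 tested, 6 fell, 6 rose and 10 did not pass the test (median -0.04), with 3 lower when scaled by library totals alone. GOLGA2 was at -0.52 and USO1 at -0.46, and GCC1 at 0.70 and GCC2 at 0.50. No difference between these lists and the members was tested.

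**Figure D5:**
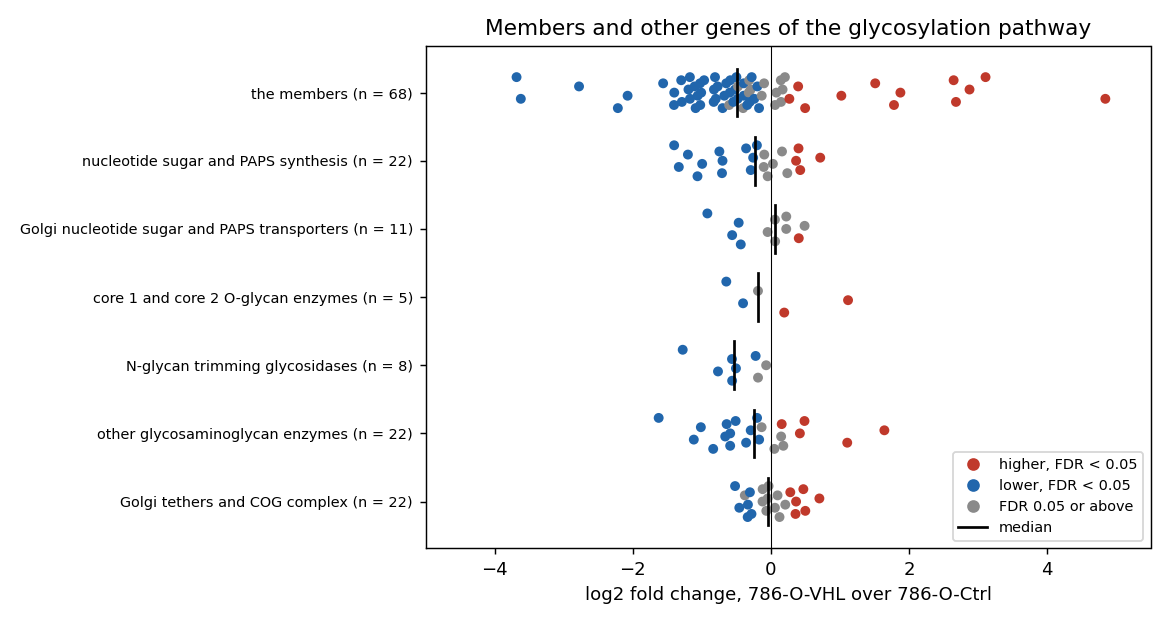
Log2 fold change of 786-O-VHL over 786-O-Ctrl for every tested gene of the members and of 6 pathway lists, with a point for each gene, colour for the call at FDR < 0.05 and a line at each list's median. The members have a median of -0.49, the trimming glycosidases -0.53 and the Golgi tethers and COG complex -0.04.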

How the data were processed

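Raw read counts per gene were deposited for 4 libraries. The authors aligned reads to hg19, and the submitters' processing notes name STAR and CASAVA. Which counting tool and annotation were used, and whether strand was used, is not given in the sources used here. Libraries were compared with edgeR 4.0.16 (quasi-likelihood F test, TMM factors, filterByExpr with a minimum count of 10, R 4.3.3), with p-values adjusted over all 12335 genes tested. CPM values carry the TMM factors, and RPKM divides them by the union exon length of GENCODE v44lift37. RPKM levels and shares compared between genes depend on that length, which may differ from the annotation used for counting. The standard error is the log2 fold change over the square root of F. Counting intervals cover counting error only.

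Alternatives were DESeq2 1.42.0, limma-voom (limma 3.58.1), other scalings and filters, thinning to the shallowest library and leaving out each library. The fits were tested on simulated data. Both 786-O-Ctrl columns carry the same name, so those libraries are told apart by depth only.

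Members given with full statistics were those called at 2-fold or more and the most abundant of each class by mean RPKM over all 4 libraries, 33 in all. Of the lists, at most 2 genes a direction were named, those with the largest changes. The members and lists were chosen with earlier results of these data known.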

Additional observations from a re-analysis of the deposited data

How the results depend on the processing

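Of the 12 members that rose, 5 could be tested under all 11 alternatives and 2 of these were called in each (B4GALT1 and CHST9). GALNT15, FUT1, ST6GAL1 and ST6GALNAC3 were called in those that tested them. Of the 42 that fell, 35 could be tested under all and 24 were called in each, and GALNT5, B3GNT4 and ST8SIA5 were called in those that tested them. Of those tested under fewer alternatives, the members named here except B3GNT4 passed the filter through a single group. Their calls are therefore no separate support. None of the 54 changed direction where tested. DESeq2 left 3 members lower past 4-fold. Scaling by library totals alone gave a member median log2 fold change of -0.36, moved the median of all genes from 0.02 to 0.15 and raised the share of calls that were higher from 50.5% to 62.1% for all genes and from 22.2% to 29.4% for members. With at least 10 counts in every library (52 members tested), 6 rose, and 1 rose and 1 fell past 4-fold. With libraries thinned to the shallowest (56 tested), 6 rose, 3 rose and 2 fell past 4-fold and the median was -0.55. Both leave fewer members to test, and a minimum in every library takes out members that changed strongly, ST6GAL1, GALNT5 and B3GNT4 among them. Leaving out each library gave medians of -0.51 to -0.39, 6 to 12 members higher, 33 to 41 lower, 4 to 6 higher past 4-fold and 2 to 4 lower past it. Without 786-O-VHL replicate 2, which leaves the shallowest library alone in its group and assumed to vary like the others, 6 rose, 2 fell past 4-fold and the median was -0.39. Without the deeper 786-O-Ctrl library 3 fell past 4-fold. The cause was not tested. No paired analysis was possible because the 786-O-Ctrl columns carry no distinct replicate numbers. Members near or under 1.02 CPM are poorly measured in 786-O-VHL replicate 1.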
